A study of Homo sapiens with 6 samples.

Results

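The ATP-binding cassette (ABC) family was examined in the established pancreatic carcinoma line MIA PaCa-2, of human origin, as every gene whose symbol reads ABC, a letter from A to G and a number. The rule found 46 of the 35993 genes in the table, which fall into 12 ABCA, 9 ABCB, 12 ABCC, 4 ABCD, 1 ABCE, 3 ABCF and 5 ABCG genes. The rule used names and no measured value. The study asked what recombinant human cytoglobin (rhCYGB), a heme protein added to the medium, changes in these cells. All cells were kept in medium with 1% FBS, with 3 libraries for cells left untreated and 3 for cells exposed to rhCYGB at 4 µM over 48 h. The model is 1 cell line at 1 dose and 1 time, and no buffer or inactive protein control is named for the untreated cells.

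ABC proteins bind and split ATP through paired nucleotide-binding domains. In subfamilies A to D and G these domains drive or gate membrane-spanning segments that move lipids, sterols, bile salts, peptides, heme precursors, drugs and conjugates across the plasma membrane or the membranes of organelles. ABCE and ABCF proteins lack membrane segments and act on ribosomes. In tumor cells the family is best known for exporters that lower the intracellular level of anticancer drugs, and in most tissues ABCA1 and ABCG1 pass cholesterol to lipoproteins.

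The 6 libraries held between 34838399 and 42271299 counts, of which the family took 0.121% ± 0.000949 (SD, n = 3) in untreated cells and 0.0941% ± 0.00278 (n = 3) in rhCYGB cells. These are shares of raw counts, without the scaling between groups used for the fold changes. The cells' own CYGB gene had 0 counts in every library, and RNA counts cannot show the added protein. Among the epithelial and carcinoma markers, VIM, which the study also used to mark stellate cells, carried most of the signal. After rhCYGB, VIM rose by 0.55 on the log2 scale, KRT8 fell by 0.81, KRT19 fell by 0.61 and KRT18 stood at 0.04. EPCAM had 0 counts in all libraries. Of the markers of other cells, PTPRC, CD3E and PECAM1 had 0 counts throughout. The summed level of the 3 endothelial markers went from 109 to 122 CPM, counts scaled to the library size, in untreated to 10.5 to 13.6 in rhCYGB libraries, nearly all of it CDH5. That of the 4 leukocyte markers went from 38.4 to 42.0 CPM to 70.6 to 72.7 CPM, nearly all of it CD68 (log2 fold change 0.99, under 2-fold), while CD14, the only leukocyte marker called at 2-fold, fell from 4.10 ± 0.0573 to 0.225 ± 0.0569 CPM (-4.18, edgeR adjusted p = 4.02e-10). The summed level of the 5 stellate cell and fibroblast markers went from 9.72 to 9.98 CPM to 5.22 to 5.67 CPM. Most of that drop was in COL3A1, called lower, at 3.99 ± 0.227 and 0.119 ± 0.108 CPM (-5.01, edgeR adjusted p = 2.72e-09). ACTA2 was at 5.61 ± 0.370 and 5.30 ± 0.122 CPM (-0.08, edgeR adjusted p = 0.548). The part of these shifts in the ABC values was not tested. In bulk RNA, fewer cells of a kind and less RNA per cell cannot be told apart. The study describes its experiments as independently repeated, but no source used here says which cultures the libraries came from, so p-values measure the spread between these libraries, which may be technical.

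The promoters of an exporter that was higher, of an exporter that was lower and of an ABC protein without membrane segments are shown first, so that the letters in front of genes that moved apart can be compared. Each is the 250 bases before the annotated start, from RefSeq on GRCh38.p14, written in the direction of transcription. The table held 53 promoters of 35 of the 46 members, and ABCG1 was not matched in it. Capitals mark matches on either strand to motifs known by name, the GC box GGGCGG, the CCAAT box, the TATA box TATAAA, the E-box CACGTG, the antioxidant response core TGACNNNGC, the C/EBP-ATF composite TGATGNAA and the direct repeat of AGGTCA with any 4 bases between its copies, together with a looser form of that repeat, AGGTNA, any 4 bases and NGGTCA, which was added after the ABCA1 letters had been seen. Receptors of the LXR class, which sense oxidized cholesterol, bind such repeats as partners of RXR.
ABCA1 (chr9:104928156-104928405, minus strand): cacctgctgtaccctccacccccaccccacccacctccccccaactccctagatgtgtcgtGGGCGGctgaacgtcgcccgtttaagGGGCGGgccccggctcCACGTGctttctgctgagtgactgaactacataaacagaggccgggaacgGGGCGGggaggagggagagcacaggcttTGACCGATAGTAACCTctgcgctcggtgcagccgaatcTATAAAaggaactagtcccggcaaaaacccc
ABCC4 (chr13:95301452-95301701, minus strand): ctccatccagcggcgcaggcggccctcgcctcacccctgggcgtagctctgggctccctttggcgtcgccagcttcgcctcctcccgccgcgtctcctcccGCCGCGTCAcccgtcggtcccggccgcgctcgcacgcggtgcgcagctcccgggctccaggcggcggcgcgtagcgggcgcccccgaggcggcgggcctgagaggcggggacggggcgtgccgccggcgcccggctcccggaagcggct
ABCE1 (chr4:145098061-145098310, plus strand): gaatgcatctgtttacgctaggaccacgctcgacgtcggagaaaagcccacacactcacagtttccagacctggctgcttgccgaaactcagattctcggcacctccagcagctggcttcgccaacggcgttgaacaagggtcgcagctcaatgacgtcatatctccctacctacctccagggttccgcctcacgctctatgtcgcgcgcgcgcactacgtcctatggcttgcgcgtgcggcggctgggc

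The ABCA1 promoter, 61.6% G and C, held GC boxes 189, 163 and 97 bases before the start, an E-box at 147, the looser repeat on the opposite strand at 69 and a TATA box at 31. The ABCC4 promoter, 80.4% G and C, held 1 match, an antioxidant response core on the opposite strand at 149 bases before the start. The ABCE1 promoter, 60% G and C, held none of the letters searched. Across the genome table of 35116 promoters, whose median was 58% G and C, GGGCGG was found in 42.6%, CCAAT in 32%, TATAAA in 10.7%, CACGTG in 6.34%, TGACNNNGC in 10.9% and TGATGNAA in 3.14%. The same motifs were found in 47.2%, 20.8%, 11.3%, 17%, 17% and 1.89% of the 53 ABC promoters. The strict repeat was found in 0.0142% of all promoters and in 0 of the ABC promoters, and the looser repeat in 0.0797% of all promoters and in 1 ABC promoter, that of ABCA1. The matches describe letters and were not tested as binding sites.

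For ABCG1 and ABCC5 the transcript sequences matter for the results below, because each gene's counts were split between annotated forms. The ABCG1 transcripts NM_004915 and NM_016818 differ in 36 coding bases, 12 codons, in exon 9 (GRCh38 chr21:42288038-42288073, plus strand). The 36 bases are in capitals, with the bases on either side in lower case.
ABCG1 NM_004915: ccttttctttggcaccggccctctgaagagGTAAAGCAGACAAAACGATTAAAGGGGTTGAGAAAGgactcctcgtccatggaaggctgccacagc

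The ABCC5 transcripts share exon 5 (GRCh38 chr3:183987770-183987917, minus strand) and differ after it. NM_005688 has 30 exons and 4311 coding bases, and encodes the full transporter. NM_001023587 has 7 exons and 624 coding bases, and NR_135125 has 7 exons and is classed in GENCODE v29 under nonsense-mediated decay. Lower case marks the shared end of exon 5 and capitals the letters that follow.
ABCC5 NM_005688: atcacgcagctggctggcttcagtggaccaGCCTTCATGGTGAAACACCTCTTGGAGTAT
ABCC5 NM_001023587: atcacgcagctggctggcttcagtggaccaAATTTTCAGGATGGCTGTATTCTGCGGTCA
ABCC5 NR_135125: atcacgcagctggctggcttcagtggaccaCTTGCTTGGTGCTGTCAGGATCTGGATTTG

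Of the 46 members, 32 had enough counts for the test. After rhCYGB, 1 of the 32 was higher by 2-fold or more at an edgeR adjusted p under 0.05, where 12.4% of all 14728 tested genes were, and 7 were lower, where 14.7% of all genes were. Both directions together made 8 of 32 members, against 27.1% of all genes, a share near the background. The member that rose was ABCG1, and those that fell were ABCA2, ABCB9, ABCA6, ABCD3, ABCA8, ABCC4 and ABCC5. At an adjusted p under 0.05 with no limit on size, 9 members rose, where 39% of all genes did, and 16 fell, where 38.6% did, and 7 did not pass. The median log2 fold change of the tested members was -0.37, beside -0.0046 for all tested genes. The CPM values of the groups did not overlap for 26 of the 32 members, a share near the background, since they did not overlap for 79.5% of all genes.

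**Figure D1:**
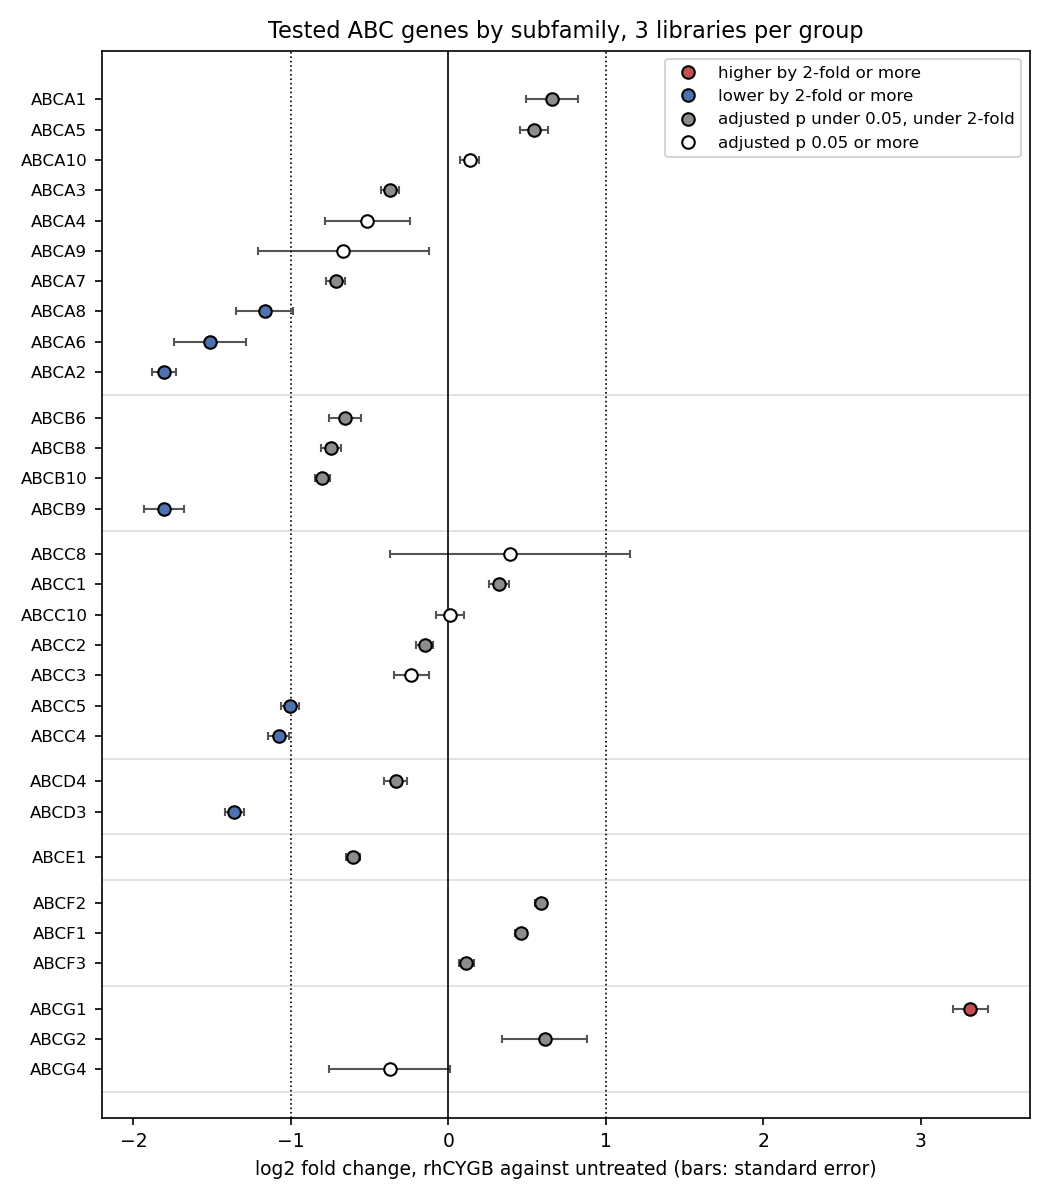
Log2 fold change (rhCYGB against untreated, horizontal axis) of the tested ABC genes reported here by name, grouped by subfamily, with bars for the standard error. ABCG1 stands alone to the right at 3.32, and the 7 members called lower lie between -1.81 and -1.003, the dotted lines marking 2-fold.

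The subfamily medians differed in sign, each over 10 tested genes or fewer. The median log2 fold change was -0.59 over 10 tested ABCA genes, -0.75 over 5 ABCB genes and -0.15 over 7 ABCC genes, while ABCE1 stood at -0.61. It was 0.46 over 3 ABCF genes and 0.61 over 3 ABCG genes. At an adjusted p alone, 2 ABCA genes rose and 5 fell, 1 ABCC gene rose and 3 fell, ABCE1 fell, all 3 ABCF genes rose, and 2 ABCG genes rose, beside 39% of all genes that rose and 38.6% that fell. Of these, ABCF3 changed sign with other scalings, and ABCG2, whose value is also the ABCG median, lost its call under 13 of 17 alternatives.

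Of 5 sterol exporters, ABCG5 and ABCG8, which together pump plant sterols and cholesterol into bile and gut, had 0 counts in every library. ABCG1, which loads cholesterol onto HDL particles (chromosome 21, 43619799 to 43717354 in the deposited transcript table, whose build is not named), had 72, 100 and 85 counts in untreated libraries 1, 2 and 3 and 743, 767 and 717 in rhCYGB libraries 1, 2 and 3. Every treated library stood far above every untreated one. The level went from 2.08 ± 0.149 CPM (SD, n = 3) to 20.8 ± 1.94 CPM (n = 3), a log2 fold change of 3.32 (SE 0.11, edgeR adjusted p = 5.71e-13).

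ABCA1, which moves cholesterol and phospholipid onto lipid-poor apolipoprotein A-I, had 114, 130 and 107 counts in untreated and 171, 125 and 191 counts in rhCYGB libraries. In CPM the groups were separate, at 3.06, 2.90 and 2.62 against 4.60, 3.76 and 5.18, with the lowest treated value in rhCYGB library 2. It rose by a log2 fold change of 0.66 (SE 0.163, edgeR adjusted p = 0.00182), which stayed under 2-fold. With limma on FPKM values the rise of ABCA1 kept its direction and no longer passed the threshold, and the edgeR call held without each library in turn. ABCG4, a relative of ABCG1 found mainly in brain, had 14, 25 and 25 counts against 17, 10 and 16, with overlapping groups and a log2 fold change of -0.37 (SE 0.38, edgeR adjusted p = 0.383).

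Per transcript length, ABCG1 in treated cells was the only one of the 3 in the range of the ABCC exporters. In FPKM (fragments scaled to transcript length and mapped reads), ABCG1 went from 0.638 ± 0.0685 to 5.80 ± 0.409, ABCA1 from 0.255 ± 0.0180 to 0.361 ± 0.0641, and ABCG4 from 0.121 ± 0.0295 to 0.0851 ± 0.0208 (each SD, n = 3). In untreated cells ABCG1 was above ABCA1 with no overlap, and ABCA1 above ABCG4. Of 9 other genes of sterol handling, 4 rose and 4 fell at an adjusted p alone, where 39% and 38.6% of all genes did. Beside 27.1% of all genes, 1 was called at 2-fold. That gene was NR1H2, the broadly expressed LXR receptor, at 39.3 ± 1.56 CPM in untreated and 100 ± 1.49 CPM in rhCYGB cells (log2 fold change 1.35, edgeR adjusted p = 5.76e-13). The other LXR gene, NR1H3, fell from 3.72 ± 0.0961 to 2.103 ± 0.341 CPM (-0.82, edgeR adjusted p = 4.99e-04), with no overlap. Of the RXR partners, RXRA fell by 0.23 on the log2 scale (edgeR adjusted p = 7.32e-04) and RXRB rose by 0.16 (0.00841).

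The transcripts of ABCG1 could not be followed one by one. NM_004915, the form with the 36 extra bases shown above, was given 13 of 72, 0 of 100 and 85 of 85 counts in untreated libraries 1, 2 and 3, and 410 of 743, 507 of 767 and 500 of 717 in rhCYGB libraries. Its share therefore ran from 0% (exact 95% interval up to 3.62%) to 100% within the untreated group, and from 55.2% to 69.7% in the treated group. Neither NM_004915 nor NM_016818 passed edgeR's test at the transcript level, although the gene's sum did, and DESeq2 called NM_004915 higher.

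The list of drug and organic anion exporters held 9 genes. ABCB1, the classical multidrug pump P-glycoprotein, had 0 counts in all 6 libraries, which allows it at most 0.0669 to 0.0902 CPM, the level of 3 counts. ABCC11, a pump for conjugates and nucleotide drugs, had 35 counts in all and was not tested. The other 7 genes of the list were tested, and 2 of them fell by 2-fold or more, where 14.7% of all genes did. At an adjusted p alone, 2 rose and 3 fell, where 39% and 38.6% of all genes did, and the list's median log2 fold change was -0.15, beside -0.0046 for all genes.

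ABCC4, which exports cyclic nucleotides, prostaglandins and nucleoside drugs, had 1245, 1531 and 1451 counts in untreated and 549, 559 and 640 in rhCYGB libraries. All treated libraries lay below all untreated ones. Its level went from 34.4 ± 1.10 to 16.3 ± 1.36 CPM, with a log2 fold change of -1.08 (SE 0.0669, edgeR adjusted p = 7.65e-10). With limma on log2(FPKM + 1) it was at -0.96.

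ABCC5, a cyclic nucleotide and organic anion exporter, had 2670, 3201 and 2905 counts against 1199, 1254 and 1366. Its gene FPKM, short transcripts included, was the highest of the drug exporters in untreated cells. Its level was 71.4 ± 0.218 CPM in untreated and 35.7 ± 2.96 CPM in rhCYGB cells, with no overlap. The log2 fold change of -1.003 (SE 0.0563, edgeR adjusted p = 2.31e-10) sits on the 2-fold line. Without rhCYGB library 1, which had the lowest value, it was -0.93 and no longer reached 2-fold, nor did it with limma on FPKM values (-0.86 and -0.93).

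ABCC1, the first multidrug resistance protein found in this subfamily and an exporter of glutathione conjugates, had 1767, 1815 and 1752 counts against 1915, 1809 and 2125. In CPM the groups were separate, at 47.4, 40.5 and 43.0 against 51.5, 54.4 and 57.6. ABCC1 rose by 0.32 on the log2 scale (SE 0.0615, edgeR adjusted p = 2.02e-04), and with limma on FPKM values it kept its direction without passing the threshold.

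ABCC2, which exports conjugates across apical membranes, had 2477, 2630 and 2480 counts against 1967, 1906 and 2116. It fell by 0.15 on the log2 scale (SE 0.0546, edgeR adjusted p = 0.0217), from 62.0 ± 4.03 to 55.9 ± 2.54 CPM. The call was lost without untreated library 1 (-0.10) and without rhCYGB library 1 (-0.10), so it rested on each of them.

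ABCG2, an exporter of many drugs, urate and porphyrins, was scarce here, with 34, 40 and 35 counts against 38, 55 and 52. The CPM values of the groups did not overlap, at 0.858 to 0.913 against 1.02 to 1.65. It rose by 0.61 on the log2 scale (SE 0.268, edgeR adjusted p = 0.0488), just inside the threshold. The call was lost under 13 of 17 alternatives, among them leaving out untreated library 1, 2 or 3 (0.63, 0.62 and 0.59) and rhCYGB library 2 or 3 (0.45 and 0.59).

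ABCC3, a basolateral exporter of glucuronides and bile salts, had 398, 535 and 561 counts against 340, 355 and 411, and its groups overlapped (log2 fold change -0.23, SE 0.108, edgeR adjusted p = 0.0619). It passed the threshold without untreated library 1 (-0.32) and without rhCYGB library 3 (-0.29). ABCC10, an exporter of taxanes and conjugates, had 668, 900 and 776 counts against 651, 585 and 825 (0.01, SE 0.0902, edgeR adjusted p = 0.916), and its sign changed with 9 of 17 alternatives. It overlaps DLK2, which had 2167 counts, and the strand setting of the counting is not stated.

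In untreated cells the order of the drug exporters in FPKM was ABCC5 at 14.3 ± 0.294, ABCC2 at 9.95 ± 0.610, ABCC1 at 6.25 ± 0.482, ABCC4 at 5.50 ± 0.187, ABCC10 at 3.71 ± 0.379, ABCC3 at 2.00 ± 0.264 and ABCG2 at 0.172 ± 0.00291. Each neighbor in that order was separate over the 3 libraries. In rhCYGB cells ABCC2 led at 8.003 ± 0.376, followed by ABCC5 at 7.46 ± 0.616 and ABCC1 at 6.97 ± 0.470, whose values overlapped one another in neighboring pairs. Below them were ABCC10 at 3.17 ± 0.518, ABCC4 at 2.33 ± 0.173, ABCC3 at 1.66 ± 0.288 and ABCG2 at 0.235 ± 0.0515. The ABCC5 values cover the whole gene, with short transcripts of 1918 and 1995 bases beside 5790 for full-length NM_005688. NM_005688 had 2352, 2829 and 2521 counts in untreated libraries, beside 2477, 2630 and 2480 of ABCC2, whose transcript has 5806 bases. In rhCYGB libraries NM_005688 had 911, 985 and 1026, beside 1967, 1906 and 2116 of ABCC2. These FPKM values therefore do not rank full-length ABCC5.

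**Figure D2:**
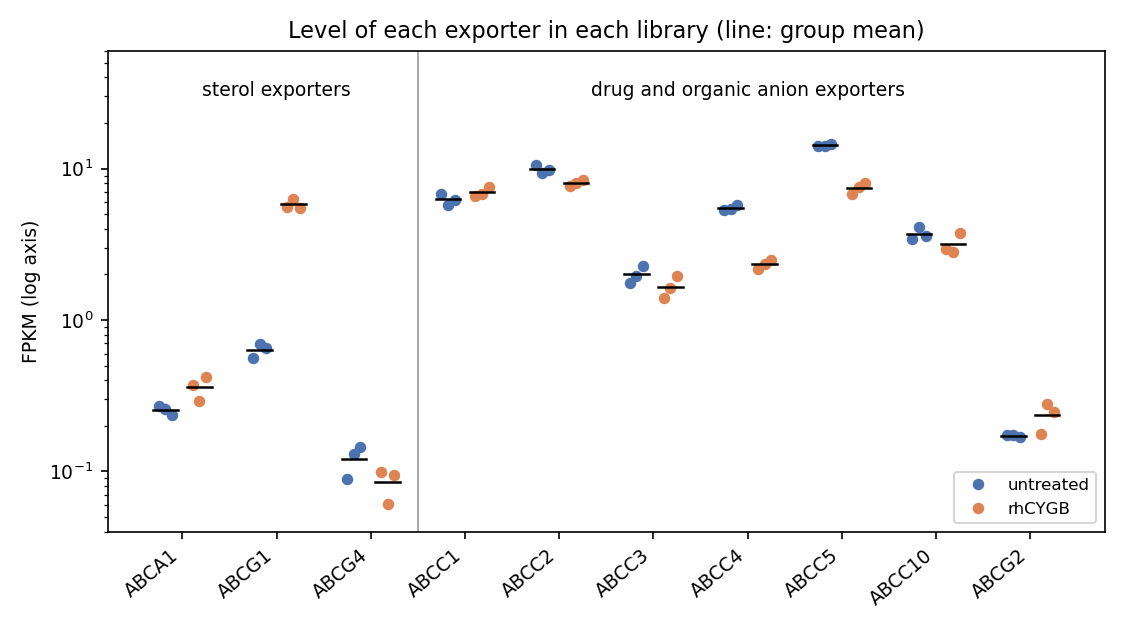
FPKM of each tested sterol and drug exporter (log axis) in the 3 untreated and 3 rhCYGB libraries, with a line at each group mean. ABCG1 moved from 0.638 up to 5.80, into the range of the ABCC exporters, while ABCC4 and ABCC5 moved down.

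Of 11 regulators and partners of drug export, 9 were tested. At an adjusted p alone 4 rose and 5 fell, where 39% and 38.6% of all genes did. Beside 27.1% of all genes, 2 were called at 2-fold. These were AHR, the dioxin receptor, at 6.76 ± 0.882 CPM in untreated and 21.0 ± 1.13 CPM in rhCYGB cells (log2 fold change 1.64, edgeR adjusted p = 4.6e-10), and NFE2L2, the regulator of antioxidant genes, at 86.9 ± 3.89 and 238 ± 10.3 CPM (1.45, edgeR adjusted p = 2.45e-13). With limma on log2(FPKM + 1) AHR was at 0.92, under 2-fold. NR1I2, the drug-sensing receptor PXR, had 0 counts in all libraries.

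The fall of ABCC5 was uneven between its transcripts. The full-length NM_005688 had 2352, 2829 and 2521 counts in untreated and 911, 985 and 1026 in rhCYGB libraries, a log2 fold change of -1.28 (SE 0.0853, edgeR adjusted p = 2.45e-04 over all transcripts). The short forms NM_001023587 and NR_135125 together had 314, 368 and 384 counts against 285, 267 and 340. Their share of ABCC5 counts was 11.8%, 11.5% and 13.2% in untreated and 23.8%, 21.3% and 24.9% in rhCYGB libraries, and every treated library lay above every untreated one.

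The mean share went from 12.2% ± 0.928 to 23.3% ± 1.84 (SD, n = 3 each, two-sided exact permutation p = 0.1, the smallest that 3 against 3 allows). The exact 95% intervals of single libraries ran from 10.4% to 14.5% in untreated and from 19.1% to 27.3% in rhCYGB cells, and cover counting error only. The split between short forms varied more, with 97, 57 and 64 counts of NR_135125 against 140, 56 and 195, and neither short form passed the test alone.

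**Figure D3:**
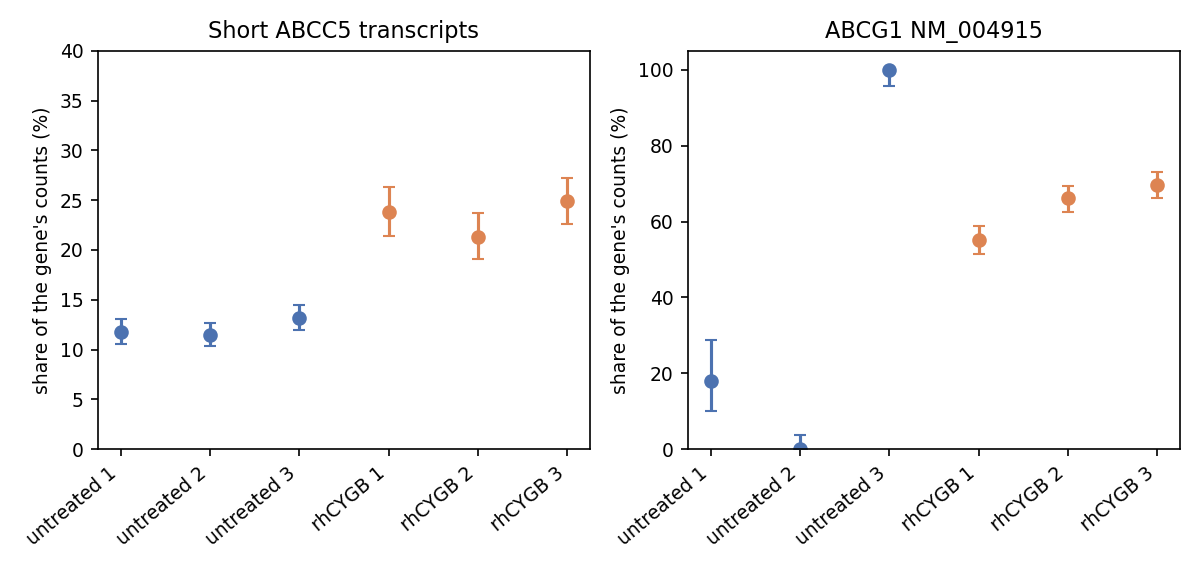
Share of a gene's counts given to the short ABCC5 transcripts (left) and to ABCG1 transcript NM_004915 (right) in each library, with exact 95% intervals that cover counting error only. The ABCC5 shares form separate groups around 12.2% and 23.3%, while the ABCG1 shares of untreated libraries run from 0% to 100%.

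All 3 lysosomal transporters fell at an adjusted p alone, where 38.6% of all genes did, and 2 of them by 2-fold or more, where 14.7% of all genes did, with a median log2 fold change of -1.81. ABCA2, a lysosomal and endosomal protein tied to sterol and sphingolipid handling (chromosome 9, 139901686 to 139923374 in the deposited table), had 2955, 3643 and 3193 counts in untreated and 711, 785 and 945 in rhCYGB libraries. It went from 79.6 ± 1.52 to 22.8 ± 3.32 CPM, with a log2 fold change of -1.81 (SE 0.0764, edgeR adjusted p = 8.25e-12).

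ABCB9, a lysosomal peptide carrier related to the TAP proteins, had 322, 425 and 364 counts against 87, 94 and 95. It fell by as much as ABCA2 (log2 fold change -1.81, SE 0.125, edgeR adjusted p = 2.93e-09). For both genes all treated libraries lay below all untreated ones. ABCD4, which helps bring cobalamin out of lysosomes, went from 20.4 ± 1.28 to 16.2 ± 0.793 CPM (-0.33, SE 0.0716, edgeR adjusted p = 5.89e-04).

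Of 3 other genes of cobalamin handling, 2 rose and 1 fell at an adjusted p alone, where 39% and 38.6% of all genes did. At 2-fold 1 of the 3 was called, beside 27.1% of all genes. The 1 called at 2-fold was MMACHC, which processes cobalamin in the cytosol, at 18.1 ± 0.482 CPM in untreated and 7.84 ± 1.38 CPM in rhCYGB cells (log2 fold change -1.21, edgeR adjusted p = 5.71e-08). With limma on log2(FPKM + 1) MMACHC was at -0.93, under 2-fold. Among ABC proteins outside the symbol rule, TAP1, which brings peptides into the endoplasmic reticulum, was at 0.02 on the log2 scale (edgeR adjusted p = 0.74), its partner TAP2 fell by 0.49 (1.72e-07), and the chloride channel CFTR had 0 counts.

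Among peroxisomal transporters, ABCD3, which brings branched-chain and bile acid precursors into peroxisomes, had 2699, 3046 and 3064 counts in untreated and 982, 890 and 1136 in rhCYGB libraries. The groups were far apart, at 71.8 ± 3.62 and 28.0 ± 2.44 CPM, with a log2 fold change of -1.36 (SE 0.0625, edgeR adjusted p = 2.14e-11). ABCD2, a carrier of very long chain fatty acids, had 0 counts in all libraries. Of 6 other peroxisome genes, 1 rose and 4 fell at an adjusted p alone, where 39% and 38.6% of all genes did. By edgeR, DESeq2 or limma 0 were called at 2-fold, beside 27.1% of all genes by edgeR. At an unadjusted p under 0.05 edgeR found 5, for which the share over all genes was not taken.

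Among mitochondrial transporters, ABCB10, which supports heme synthesis in the inner membrane, went from 51.5 ± 1.36 to 29.6 ± 0.768 CPM (-0.80, SE 0.0499, edgeR adjusted p = 8.05e-10). ABCB8 and ABCB6, linked to iron and porphyrin handling, fell by 0.75 and 0.65 on the log2 scale, and in all 3 genes the groups did not overlap.

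Of 8 other genes of heme and iron-sulfur synthesis, 3 rose and 5 fell at an adjusted p alone. Over all genes 39% and 38.6% did. At 2-fold 2 were higher and 1 lower, where 12.4% and 14.7% of all genes were. The largest changes were in SLC25A38, a glycine carrier for heme synthesis, at 29.1 ± 1.13 and 85.1 ± 4.53 CPM (log2 fold change 1.55, edgeR adjusted p = 7.32e-13), and NFS1, the sulfur donor of iron-sulfur clusters, at 46.8 ± 1.58 and 17.5 ± 0.526 CPM (-1.43, edgeR adjusted p = 3.12e-12).

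The 4 ABC proteins of the ribosome led the family by mean FPKM in both groups and moved in opposite directions, all under 2-fold. ABCE1, which splits ribosomes after termination, had 4909, 5805 and 5796 counts in untreated and 3338, 2840 and 3301 in rhCYGB libraries. It fell by 0.61 on the log2 scale (SE 0.0443, edgeR adjusted p = 5.26e-09). ABCE1 shares its locus with ANAPC10, which had 2130 counts against 25989 of ABCE1.

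ABCF1, which takes part in translation initiation, had 3911, 4482 and 4039 counts against 5016, 4783 and 5170. ABCF1 rose by 0.46 on the log2 scale (SE 0.0405, edgeR adjusted p = 4.58e-08). ABCF2 had 4697, 5868 and 5264 counts against 7335, 6230 and 7203 and rose by 0.59 (SE 0.0377, edgeR adjusted p = 1.12e-09). It overlaps LOC114483834, which had 1138 counts against 36597 of ABCF2. In these 3 genes the CPM values of the groups did not overlap, and the calls held under all 17 alternatives.

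ABCF3 was at 54.0 ± 3.09 against 58.5 ± 1.2 CPM and passed narrowly (0.12, SE 0.0502, edgeR adjusted p = 0.0467). Its call was lost without untreated library 1 (0.07) or 3 (0.13) and without rhCYGB library 2 (0.12) or 3 (0.10). Its sign changed to -0.05 with total counts, which moved the median of all genes to -0.17, and with upper quartile factors and FPKM values. Of 10 genes of ribosome recycling and translational control, 6 rose and 4 fell at an adjusted p alone. Over all genes 39% and 38.6% did. At 2-fold 0 were called by edgeR or DESeq2, beside 27.1% of all genes by edgeR. Limma called 1, GCN1, an activator of the integrated stress response kinase.

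In FPKM, the family summed to 240 ± 4.41 in untreated and 194 ± 7.05 in rhCYGB cells (SD, n = 3 each). The ABCE and ABCF genes summed to 106 ± 2.46 and 107 ± 3.41, whereas the 42 genes of the other subfamilies went from 133 ± 1.99 to 86.3 ± 3.90. FPKM carries no scaling between groups, while the TMM factors behind CPM were 1.06 in untreated and 0.932 to 0.955 in rhCYGB libraries. A steady FPKM sum is therefore not a steady CPM sum. ABCF3, for example, was at 19.5 ± 1.2 and 18.9 ± 0.742 FPKM but at 54.0 ± 3.09 and 58.5 ± 1.2 CPM. The share of the ABCF genes went from 30.8% ± 0.459 to 45.7% ± 0.410, that of ABCE1 from 13.5% ± 0.539 to 9.75% ± 0.293 and that of the ABCD genes from 12.2% ± 0.287 to 6.84% ± 0.187.

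The share of the ABCA genes went from 12.4% ± 0.218 to 8.93% ± 0.336, of the ABCB genes from 13.3% ± 0.218 to 10.3% ± 0.340 and of the ABCC genes from 17.4% ± 0.329 to 15.3% ± 0.819. The ABCG share went from 0.389% ± 0.0361 to 3.16% ± 0.317. In each subfamily the shares of the groups did not overlap. The shares sum to 100% within a library, so a higher share of 1 subfamily lowers the others.

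**Figure D4:**
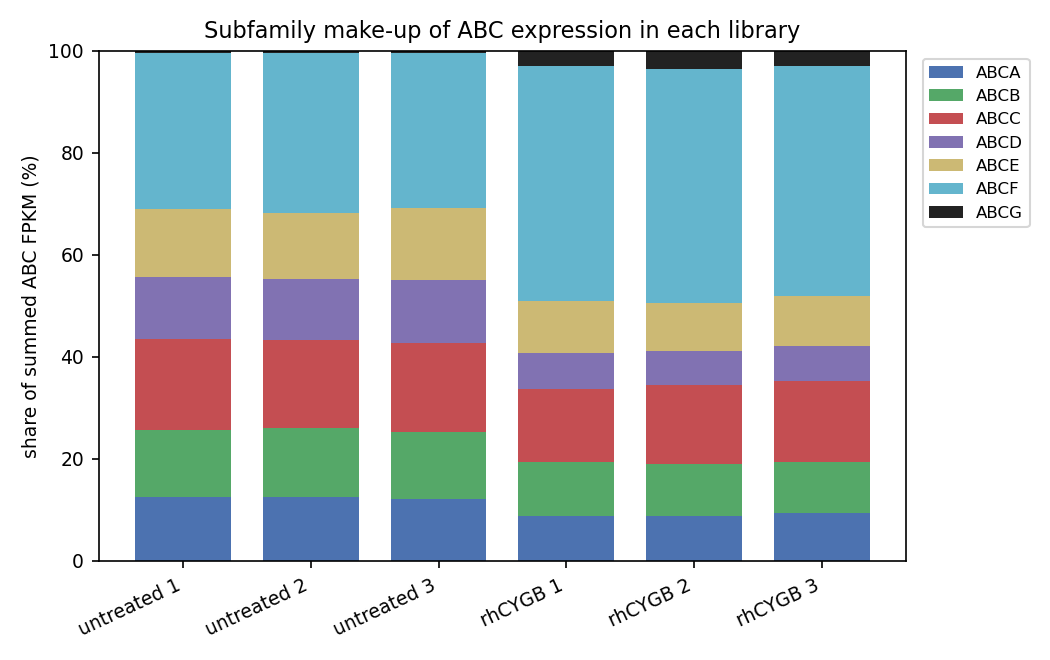
Share of the summed ABC FPKM (vertical axis, percent) taken by each subfamily in each library. The ABCF band widens from a mean of 30.8% to 45.7% in all 3 rhCYGB libraries, the ABCG band appears at 3.16%, and the ABCD band narrows to 6.84%.

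Of the ABCA genes on chromosome 17, ABCA8, ABCA9, ABCA6, ABCA10 and ABCA5 lie next to each other between 66863428 and 67323274 in the deposited table, and are lipid transporters whose substrates are less well known. They did not move together. ABCA6 had 105, 137 and 113 counts in untreated and 26, 39 and 43 in rhCYGB libraries (log2 fold change -1.51, SE 0.229, edgeR adjusted p = 2.19e-05). ABCA8 had 165, 156 and 199 counts against 78, 56 and 70 (-1.16, SE 0.182, edgeR adjusted p = 3.02e-05). For both, the treated libraries lay below the untreated ones, and with limma on log2(FPKM + 1) the fold of these low genes came out at -0.38 and -0.39.

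ABCA5, at the other end of the cluster, rose from 11.9 ± 0.827 to 17.4 ± 1.78 CPM (0.54, SE 0.0898, edgeR adjusted p = 5.16e-05). ABCA10 was at 27.6 ± 0.812 and 30.4 ± 2.08 CPM with overlapping groups (0.14, SE 0.0610, edgeR adjusted p = 0.0524), changed sign with total counts (-0.03), and passed without untreated library 2 (0.16) or rhCYGB library 2 (0.19). The positions of ABCA5 and ABCA10 overlap at their ends, and reads there could be split between them. ABCA9 had 11, 39 and 8 counts against 9, 13 and 9, and its log2 fold change of -0.67 (edgeR adjusted p = 0.275) became 0.25 without untreated library 2.

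Among the other lipid and retinoid transporters, ABCA7, which moves phospholipids and takes part in phagocytosis, fell by 0.71 on the log2 scale (SE 0.0607, edgeR adjusted p = 3.32e-08), from 41.8 ± 0.312 to 25.5 ± 2.07 CPM. ABCA3, the surfactant lipid carrier of lung, fell by 0.37 (SE 0.0559, edgeR adjusted p = 2.16e-05). ABCA4, the retinoid carrier of photoreceptors, had 53, 63 and 59 counts against 49, 32 and 26 (-0.51, SE 0.270, edgeR adjusted p = 0.0945). Its CPM groups did not overlap, and it passed the threshold without rhCYGB library 1 (-0.77). ABCB4 and ABCB11, the phospholipid and bile salt pumps of the bile canaliculus, had 0 counts.

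ABCC8, the sulfonylurea receptor of the beta cell potassium channel, had 4, 7 and 10 counts against 12, 12 and 0 (0.39, SE 0.763, edgeR adjusted p = 0.649), and its sign changed without rhCYGB library 2 (-0.08). ABCC9, its counterpart in muscle, had 0 counts. KCNJ11, the pore that ABCC8 regulates, was at 1.44 ± 0.191 CPM in untreated and 6.01 ± 1.007 CPM in rhCYGB cells (log2 fold change 2.05, edgeR adjusted p = 5.3e-08), and the other pore gene KCNJ8 had 0 counts. With limma on log2(FPKM + 1) KCNJ11 was at 0.83, under 2-fold.

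Beyond those named, ABCA13, ABCB5, ABCC12 and the transcribed pseudogene ABCC13 also had 0 counts, which makes 11 members without a count in any library. Counts below the filter were found for ABCA12, a lipid carrier of skin, with 3 and 5 counts in rhCYGB libraries 1 and 2 and 0 elsewhere, and for ABCC6, with 5 counts in all. ABCC6 has near-identical pseudogene copies, so its reads are uncertain, and ABCC11 lies over LONP2, which had 22594 counts.

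The transcript table listed 149 transcripts of the 46 genes, of which 106 had counts and 66 were tested. By edgeR, 0 of the 66 were higher by 2-fold and 6 were lower at an adjusted p under 0.05, or 9.09%, beside 16.9% of all 32577 transcripts tested. These were the main transcripts NM_080284 of ABCA6, NM_007188 of ABCB8, NM_005845 of ABCC4, NM_005688 of ABCC5 and NM_002858 of ABCD3, and NM_020325 of ABCD4. At an unadjusted p under 0.05 edgeR found 5 higher, a count whose share over all transcripts was not taken and that cannot be set beside a background. DESeq2, run without the count filter, called 13 of 106 transcripts at 2-fold, 11 lower and 2 higher, NM_004915 of ABCG1 and NM_001144070 of ABCC3. Its share over all transcripts was not counted, so the 13 cannot be set beside the 16.9%. The 11 include scarce forms, such as NM_019624 of ABCB9 with 6, 5 and 13 counts in untreated and 0 in all rhCYGB libraries. For ABCA2, the whole gene was called and its transcripts were not, in edgeR's test, where NM_001606 had 2823, 3608 and 3193 counts in untreated but 16, 785 and 945 in rhCYGB libraries, the rest of rhCYGB library 1 being given to NM_212533 (695 counts). The split of reads between transcripts differed between libraries of 1 group. Without rhCYGB library 3 the number called was 3.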

How the data were processed

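RNA-seq read counts and FPKM values were taken from the deposited gene and transcript tables for 3 untreated and 3 rhCYGB libraries. Libraries had been made with a stranded mRNA kit, and the submitters' processing notes name FastQC 0.11.7, HISAT2 2.1.0 and StringTie 2.1.3b. The notes name mm10 as the build, although cells and gene names are human. Transcript positions are those of the deposited table, whose build is not given in the sources used here. The authors deposited whole read counts per gene and transcript, not normalized. They also deposited FPKM values, which are relative to transcript length and mapped reads, with no scaling factor between groups. The TPM columns, 6 per table, were not used.

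Counts were analysed with edgeR 4.0.16 in R 4.3.3 (filterByExpr, TMM, glmQLFit, glmQLFTest) on all 6 libraries, with Benjamini-Hochberg adjustment over the 14728 genes or 32577 transcripts tested. A call required an adjusted p under 0.05, with or without a fold change of 2. CPM used TMM-scaled library sizes, fold changes a prior count of 2, and standard errors were the log2 fold change over the root of F. Libraries of 1 group differed by more than counting error (chi-square per degree of freedom 4.81 to 6.88), and the common dispersion of 0.00300 made small changes pass. Intervals are exact binomial at 95% and cover counting error only.

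The members and lists were chosen with earlier results of these data known. Full statistics are given for members called at 2-fold with at least 1 CPM in the higher group and for all tested sterol and drug exporters, and of each pathway list the 2 largest called changes are named; values of other genes were added after they were seen. Some members are counted but not reported here by name. Alternatives were DESeq2 1.42.0 size factors and Wald test, upper quartile factors, total counts, library sizes without mitochondrial genes, limma 3.58.1 on log2 FPKM with 1 or 0.1 added, genes not filtered, at least 10 counts in every sample, counts summed over transcripts, a block for the replicate number, and each library left out in turn. The fits were tested on simulated data with few changed genes, all changed by more than 2-fold, so changes near or under 2-fold were not covered. Promoters came from RefSeq (GRCh38.p14) and exons from GENCODE v29.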

Additional observations from a re-analysis of the deposited data

How the results depend on the processing

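The number of ABC genes higher by 2-fold was 1 under all 17 alternatives, and without each library in turn it was 1 to 1. The number lower was 7 in the reported fit and 6 to 7 without a library. It was 6 with limma on log2(FPKM + 0.1), which lost ABCC5. With limma on log2(FPKM + 1) it was 3, with ABCA6, ABCA8, ABCC4 and ABCC5 lost. Adding 1 shrinks low genes such as ABCA6 and ABCA8 by construction, while ABCC4 and ABCC5 were not low. The number past the adjusted p alone was 25, ranged from 20 to 26 over the alternatives and from 23 to 25 without a library. ABC transcripts called were 6, 13 of 106 with the Wald test of DESeq2, where the cause was not tested, and 3 to 8 without a library.

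The replicate numbers shared by the groups showed no visible pairing. Correlations of deviations were -0.048 to 0.0072 for equal numbers and -0.055 to 0.054 for others. With so few libraries they cannot show whether the cultures were paired. With the replicate block 1 gene was called higher, 7 lower, 25 at the adjusted p alone and 5 transcripts, and ABCC3 passed (-0.23) and ABCG2 did not (0.60).

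Total counts moved the median of all genes to -0.17 and upper quartile factors to -0.15. The sign changed for ABCA10 (-0.0052 with upper quartile factors, -0.029 with total counts, -0.024 and -0.030 with limma on FPKM plus 1 and 0.1) and for ABCF3 (-0.026, -0.049, -0.045 and -0.047 in the same order). It changed for ABCC10 under those 4 (-0.13, -0.15, -0.18 and -0.23), with DESeq2 size factors (-0.00014), the Wald test (-0.0066), at least 10 counts (-0.0082), without untreated library 1 (-0.031) and without rhCYGB library 3 (-0.11), with a range of -0.11 to 0.081 when 1 library was left out. It also changed for ABCA9 without untreated library 2 (0.25, range -1.02 to 0.25) and for ABCC8 without rhCYGB library 2 (-0.075, range -0.075 to 0.99). Of 661 gene values under alternatives, 599 kept direction and side of the threshold, 31 lost the call, 12 gained it and 19 changed sign. Depth limits the genes under about 50 counts per library, such as ABCG2, ABCG4, ABCA9 and ABCC8.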
